A study of Mus musculus with 8 samples.

Results

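The mitotic G2/M genes are 43 genes that act when a cell enters and passes through mitosis. They were taken by symbol from the 32285 genes counted, and all 43 were found. The rule sets no threshold on a measured value, although the list was drawn up with earlier results of these data known. The study grew activated CD8 T cells of mice beside bone marrow stromal cells (BMSCs) whose mitochondria carried the red protein dsRed, and profiled single T cells by RNA sequencing. T cells that held dsRed (MitoPositive) were sorted from those that did not (MitoNegative), and 18 hashtagged samples from 3 donor mice were sequenced in 4 libraries. The groups were MitoPositive and MitoNegative cells straight from culture (d0), and MitoPositive and MitoNegative cells taken back from the spleen and from the tumor of B16KVP tumor-bearing B6 mice 7 days after transfer (d7), with 3 samples per group, 1 per donor. All groups share activation and the culture with BMSCs. The names MitoPositive and MitoNegative at d7 refer to the sort before transfer. In the deposited sample list the 2 arms of a donor have different recipient codes at d7, so arm and recipient cannot be told apart, whereas spleen and tumor of 1 arm share their code.

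Cells duplicate their DNA in S phase, prepare in G2 and divide in mitosis. Cyclin B bound to Cdk1 drives entry into mitosis, spindle and kinetochore proteins pull the chromosomes apart, and the anaphase-promoting complex ends mitosis by marking cyclins and securin for destruction. Most mitotic genes are held down in resting cells by the DREAM complex and switched on late in the cycle by B-Myb and FoxM1, and activated CD8 T cells are among the fastest dividing cells of the body.

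Several facts about the libraries touch every result. The submitters' text gives conflicting maps of the d0 hashtags, with odd numbers for MitoPositive cells in one place and numbers 1 to 3 in another; the deposited sample list has the odd numbers, and that map was used. Samples held 30 to 3421 cells and 323344 to 26516196 UMIs (unique molecular identifiers, each standing for 1 captured RNA). The smallest were the MitoNegative tumor sample of donor 1 with 30 cells and the MitoPositive spleen sample of donor 3 with 49 cells. Median depth was 5288 to 8599 UMIs per cell over the d0 and spleen samples and 10067 to 21063.5 over the tumor samples. All 5 T cell markers (Cd3d, Cd3e, Cd3g, Cd8a and Cd8b1) were detected in every group. Summed myeloid markers stood at 4.21 to 9.33 CPM (counts per 1000000 UMIs of a sample) at d0, and 28 of 18092 barcodes occurred in more than 1 library.

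Summed over the 43 genes, the MitoPositive samples of donors 1, 2 and 3 held 1181, 1599 and 1889 CPM at d0, against 425, 529.6 and 759.6 CPM in the MitoNegative samples. In the spleen the sums were 567, 696 and 2474 CPM in MitoPositive samples, against 3486, 1981 and 2248 CPM in MitoNegative samples. In the tumor they were 1926, 2283 and 2372 CPM in MitoPositive samples, against 1454, 1246 and 2858 CPM in MitoNegative samples. The arms were thus apart at d0 with MitoPositive higher, overlapped in the spleen through the MitoPositive sample of donor 3, and overlapped in the tumor through the MitoNegative sample of donor 3. In that spleen sample, 3 cells held 726 of the 800 UMIs of these genes, 90.8%, and the next cell held 5. Some other sums leaned on few cells too. By donor 1, 2 and 3, the top 3 cells held 44.4%, 39.1% and 25.7% at d0 in the MitoNegative arm. In the MitoPositive arm they held 16.1%, 17.6% and 12.8%. Tumor shares were 63.4%, 48.9% and 14.1% for MitoNegative cells and 14.7%, 2.79% and 3.97% for MitoPositive cells. The remaining spleen samples had 1.33% to 17.2%. In sums over a sample, more cells with these RNAs and more RNA per cell cannot be told apart.

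**Figure D1:**
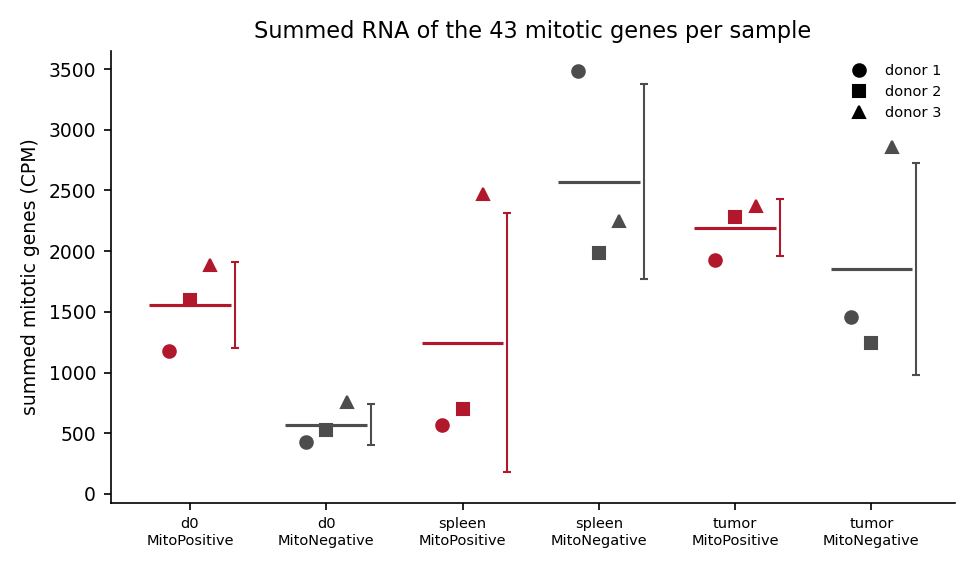
Summed level of the 43 mitotic genes in CPM (y axis) for the 3 samples of each group (x axis), with symbols for donors, lines for group means and bars for the SD. MitoPositive samples sit at 1181 to 1889 CPM at d0, above all MitoNegative samples at 425 to 759.6 CPM, and 1 of 3 MitoPositive spleen samples sits at 2474 CPM, away from the others at 567 and 696 CPM.

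At d0, all 43 genes were higher in MitoPositive cells (edgeR, adjusted p under 0.05), where 6.03% of the 11436 genes tested were called higher. Their median log2 fold change was 1.61, with a range of 0.71 to 1.98, against a median of 0 over all genes tested. The MitoPositive samples did not overlap the MitoNegative samples for any of the 43 genes, and 12.3% of all genes tested were higher without overlap. With the other map of the hashtags, edgeR called 0 of the 43 genes, 0 also had an unadjusted p below 0.05, and the median was -0.05. That map called 0 of 11436 genes in all, and 393 had an unadjusted p below 0.05.

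In the spleen, 34 of the 43 genes were lower in MitoPositive cells, where 2.97% of the 11905 genes tested were called lower. The median was -1.79, with a range of -2.83 to -0.96, and the fitted fold change was negative for all 43. Within donor 3 the sum ran the other way, at 2474 CPM in MitoPositive against 2248 CPM in MitoNegative cells. There Ube2c and Cenpf, among others, also stood higher in MitoPositive cells, whereas Stmn1 and Birc5, among others, stood lower. The 9 genes that did not pass were Ube2c, Aurka, Cenpa, Cenpf, Ndc80, Nuf2, Kif20a, Hmmr and Ckap2. The MitoPositive samples lay wholly below the MitoNegative samples for 13 genes, and 13.8% of all genes tested were lower without overlap. Leaving out the samples under 50 cells gave 40 lower genes, where 280 of 12584 genes tested were called lower. Leaving out donor 1, donor 2 or donor 3 gave 0, 5 and 42, with medians of -1.10, -1.84 and -2.12. Over all genes, these fits called 7 of 12194, 61 of 11131 and 648 of 12307 lower. Assigning cells with HTODemux, another hashtag caller, gave 6, with a median of -1.55, where 62 of 11047 genes were called lower. Summed myeloid markers were 147 to 881 CPM in MitoPositive and 131 to 261 CPM in MitoNegative spleen samples, and B cell markers were 74.2 to 433 CPM in MitoPositive and 127 to 1541 CPM in MitoNegative spleen samples. Without the clusters rich in markers of other cell types, a choice made after the data were seen, 39 genes were lower, where 534 of 11607 were.

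In the tumor, edgeR called 0 of the 43 genes between the arms, where it called 0.193% of all genes tested in either direction. DESeq2 also called 0 of the 43, where it called 0.916% of all genes. The median was 0.10, with a range of -1.13 to 0.63, against 0.05 over all genes tested, and 29 of the 43 fold changes were positive. Cenpa and Ndc80 had an unadjusted edgeR p below 0.05 (2 of 43), as did 1301 of the 11905 genes tested. For Ndc80, 129 of the 141 UMIs of the MitoNegative sample of donor 2 came from 1 cell. The median and its sign turned on single donors: it was 0.17 without donor 1 (30 positive), -0.19 without donor 2 (9 positive) and 0.73 without donor 3 (38 positive, 18 with an unadjusted p below 0.05), and 0 genes passed each time. Without donor 3, 1421 of the 12307 genes tested had an unadjusted p below 0.05. HTODemux gave a median of 0.29, with 40 positive. The standard errors ran from 0.24 for Incenp to 0.73 for Cenpf. With no filter on low counts, 4 genes were called higher and 1 lower, where 211 and 145 of 22455 genes were.

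**Figure D2:**
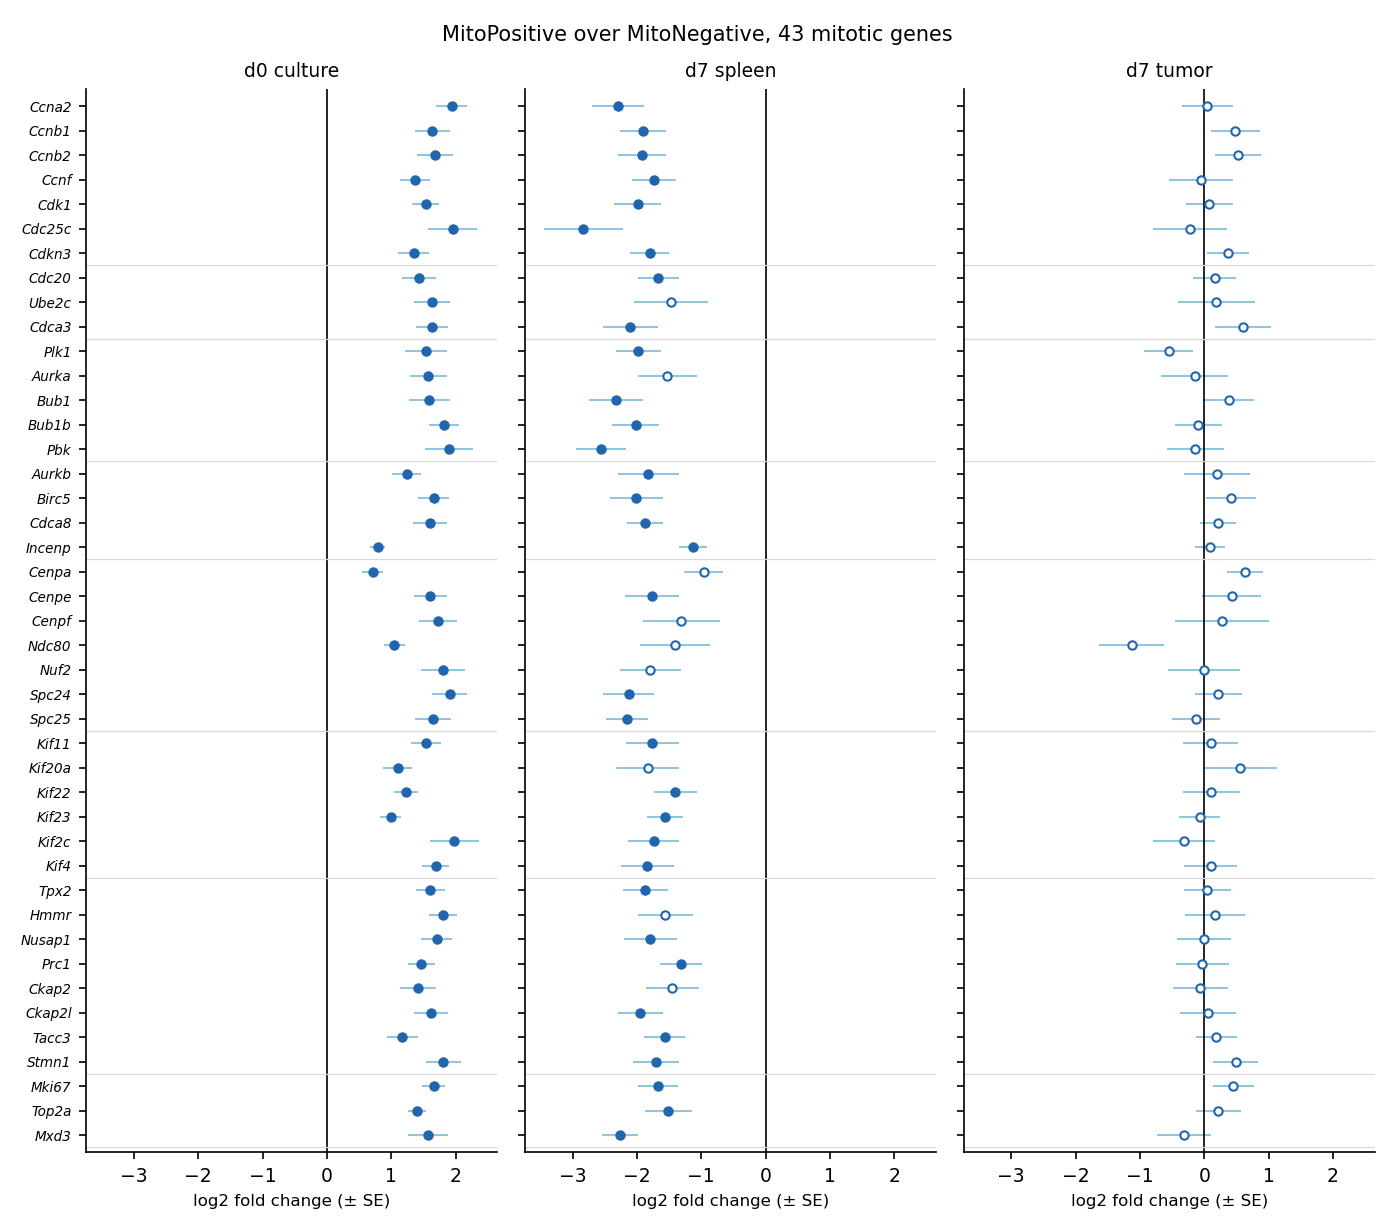
Log2 fold change of MitoPositive over MitoNegative cells with its SE (x axis) for the 43 mitotic genes (y axis), ordered by role with lines between roles, at d0, in the d7 spleen and in the d7 tumor. Filled points passed the edgeR test at an adjusted p under 0.05; all 43 are filled and right of 0 at d0, 34 are filled and all are left of 0 in the spleen, and none is filled in the tumor.

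The arm effect itself differed between spleen and d0 for all 43 genes, each lower, where 7.46% of 12754 genes were called lower in a fit of all 18 samples. The median of that difference was -3.53, from -4.85 for Cdc25c to -1.76 for Cenpa. Cdc25c had 4, 6 and 2 UMIs in the MitoPositive spleen samples. Between tumor and d0, edgeR called 0 of the 43 genes (36 had an unadjusted p below 0.05), where it called 0.525% of all genes. Of all 12754 genes tested, 1738 had an unadjusted p below 0.05. DESeq2 called 1, where it called 1.8% of all genes. With no filter on low counts, edgeR called 37, all lower, where it called 328 of 23374 genes lower. The median difference was -1.50, and all 43 differences were negative. Between tumor and spleen, edgeR called 0 of the 43 genes (39 had an unadjusted p below 0.05), where it called 0.0504% of all genes in either direction. Of all 11905 genes tested, 1406 had an unadjusted p below 0.05. DESeq2 called 8, where it called 1.18% of all genes. With edgeR, no filter on low counts gave 42 higher, thinned cells 7, and leaving out the clusters rich in markers of other cell types 11. Over all genes, these settings called 439 of 22455, 24 of 9905 and 68 of 11607 higher. The fit treats spleen and tumor of the same recipients as independent within a donor. With the recipient as block, a choice made after the data were seen, 1 gene (Cdca8) was called higher, with a median of 1.69. That fit called 15 of 11905 genes higher. In the fit with the library as block, all 43 differences between tumor and spleen were positive, with a median of 1.93. Without donor 3, 34 passed, where 332 of 12307 genes were called higher. These 3 differences share samples with one another and with the comparisons above.

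Many mitotic promoters carry a CHR element (TTTGAA, or TTCGAA in some genes), where DREAM, B-Myb and FoxM1 act, downstream of CCAAT boxes bound by NF-Y. RefSeq promoter sequences (GRCm38.p6, 250 bases before to 50 after the start) were at hand for 34 of the 43 genes. TTTGAA or TTCGAA on either strand occurred in 27 of 34, 79.4%, against 19.2% of all 32851 promoters in the table. CCAAT on either strand occurred in 27 of 34, 79.4%, against 37.4%. Both kinds occurred in 25 of 34, 73.5%, against 7.52%, and TTCGAA reads the same on both strands. A CHR match and a CCAAT match shared letters in 1 of the 34 promoters. Stretches of 5 genes from 5 roles are shown, from 150 bases before to 20 after the start, since they hold the motifs in each form. They lie at chr9:70421535-70421704 (minus strand) for Ccnb2, chr2:164769779-164769948 (plus) for Ube2c, chr2:127831840-127832009 (minus) for Bub1, chr19:37376232-37376401 (plus) for Kif11 and chr11:99024170-99024339 (minus) for Top2a. Each is written 5′ to 3′ in the direction of transcription, and capitals mark the motifs, with TTCAAA and ATTGG their forms on the opposite strand.
Ccnb2: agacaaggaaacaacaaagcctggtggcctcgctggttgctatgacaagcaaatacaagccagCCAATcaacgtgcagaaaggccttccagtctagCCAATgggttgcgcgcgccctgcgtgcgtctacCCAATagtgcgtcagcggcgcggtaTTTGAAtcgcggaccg
Ube2c: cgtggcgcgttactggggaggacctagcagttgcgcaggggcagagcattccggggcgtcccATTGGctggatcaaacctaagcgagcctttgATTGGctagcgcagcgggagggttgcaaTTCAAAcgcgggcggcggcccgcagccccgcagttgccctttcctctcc
Bub1: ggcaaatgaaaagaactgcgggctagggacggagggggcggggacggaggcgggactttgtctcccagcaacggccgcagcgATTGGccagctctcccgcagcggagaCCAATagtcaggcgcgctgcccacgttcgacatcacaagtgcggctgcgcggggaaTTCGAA
Kif11: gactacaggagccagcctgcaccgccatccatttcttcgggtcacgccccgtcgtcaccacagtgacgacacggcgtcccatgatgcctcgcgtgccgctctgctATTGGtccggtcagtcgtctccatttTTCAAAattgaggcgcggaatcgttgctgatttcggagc
Top2a: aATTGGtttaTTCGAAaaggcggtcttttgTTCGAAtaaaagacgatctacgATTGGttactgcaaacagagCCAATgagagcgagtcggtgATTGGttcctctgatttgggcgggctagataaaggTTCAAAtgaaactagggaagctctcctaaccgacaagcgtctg
The CHR element stands close to the start and downstream of the CCAAT boxes in Ccnb2, Ube2c, Bub1 and Kif11, and Bub1 has the TTCGAA form. In Top2a, TTTGAA on the opposite strand stands near the start, downstream of 4 CCAAT boxes, and a pair of TTCGAA matches stands farther upstream, between the CCAAT boxes. A match is a run of letters and not a measured binding site.

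Among the mitotic cyclins, Cdk1 and its regulators (7 genes), all 7 were higher at d0 and lower in the spleen, with medians of 1.64 and -1.92. Ccnb2, a B-type cyclin that activates Cdk1, had 34.7, 40.9 and 65.4 CPM in MitoPositive cells of donors 1, 2 and 3 at d0, against 7.96, 16.6 and 20.9 CPM in MitoNegative cells. In the spleen it had 13.3, 13.2 and 58.8 CPM in MitoPositive cells, against 87.5, 44.2 and 54.7 CPM in MitoNegative cells. In the tumor it had 71.0, 84.4 and 89.2 CPM in MitoPositive cells, against 44.3, 31.8 and 91.3 CPM in MitoNegative cells. The groups were apart at d0 and overlapped at d7 in both tissues, each time through donor 3. Its log2 fold changes were 1.68 ± 0.28 (SE, adjusted p = 0.0024), -1.92 ± 0.37 (adjusted p = 0.011) and 0.53 ± 0.36 (adjusted p = 0.66). Cdk1, the kinase that drives mitosis, had 23.9, 26.3 and 35.6 CPM in MitoPositive cells at d0, against 6.69, 12.9 and 11.0 CPM in MitoNegative cells. In the spleen its values were 10.5, 17.5 and 46.4 CPM in MitoPositive cells, against 92.5, 50.6 and 49.1 CPM in MitoNegative cells, without overlap. In the tumor they were 56.0, 51.8 and 47.0 CPM in MitoPositive cells, against 40.3, 32.8 and 63.8 CPM in MitoNegative cells, with overlap. Cdc25c, a phosphatase that switches Cdk1 on, had the lowest spleen fold change of the 43 genes, at -2.83 ± 0.62 (adjusted p = 0.021). It rested on 4, 6 and 2 UMIs in MitoPositive spleen samples. Its values there were 0.559, 0.473 and 6.19 CPM, against 6.94, 3.53 and 4.82 CPM in MitoNegative samples, with overlap.

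Of the 3 partners of the anaphase-promoting complex, all were higher at d0 and Cdc20, its activator, and Cdca3 were lower in the spleen. Ube2c, the ubiquitin-conjugating enzyme of the complex, had 60.5, 78.4 and 112 CPM in MitoPositive cells at d0, against 13.4, 33.6 and 36.6 CPM in MitoNegative cells. Its spleen values were 12.4, 26.7 and 204 CPM in MitoPositive cells, against 117, 72.8 and 91.3 CPM in MitoNegative cells. The value of 204 CPM rested on 66 UMIs, of which 43 came from 1 cell. Without the samples under 50 cells its spleen fold change was -2.18 and passed, against -1.47 ± 0.58 (adjusted p = 0.20) with them. Tumor values were 44.1, 79.3 and 70.5 CPM in MitoPositive cells, against 80.6, 28.8 and 87.3 CPM in MitoNegative cells. Cdca3, a trigger of mitotic entry, had 20.4, 23.0 and 33.8 CPM in MitoPositive cells at d0, against 6.87, 6.52 and 12.3 CPM in MitoNegative cells. In the spleen Cdca3 had 6.57, 10.4 and 46.4 CPM in MitoPositive cells, against 57.8, 41.1 and 35.6 CPM in MitoNegative cells. Its tumor values were 47.3, 46.2 and 42.8 CPM in MitoPositive cells, against 20.1, 10.9 and 48.5 CPM in MitoNegative cells. For both genes the arms were apart at d0 alone, and donor 3 went against the other donors in the spleen.

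The mitotic kinases and checkpoint proteins (5 genes) were all higher at d0, and 4 were lower in the spleen, all but Aurka, a spindle pole kinase. Bub1b, a checkpoint protein that restrains anaphase, had 11.9, 17.7 and 19.0 CPM in MitoPositive cells at d0, against 4.34, 3.78 and 6.15 CPM in MitoNegative cells. In the spleen it stood at 4.47, 4.41 and 18.6 CPM in MitoPositive cells, against 26.9, 17.4 and 20.7 CPM in MitoNegative cells. Tumor levels were 17.7, 17.8 and 20.3 CPM in MitoPositive cells, against 10.1, 7.94 and 35.2 CPM in MitoNegative cells. Its fold changes were 1.82 ± 0.23 at d0 (adjusted p = 0.00052), -2.02 ± 0.37 in the spleen (adjusted p = 0.009) and -0.09 ± 0.37 in the tumor (adjusted p = 0.99). Plk1, a kinase of mitotic entry and the spindle, had 8.64, 12 and 16.8 CPM in MitoPositive cells at d0, against 4.52, 2.06 and 6.79 CPM in MitoNegative cells. Spleen values of Plk1 were 4.47, 4.49 and 18.6 CPM in MitoPositive cells, against 28.1, 15 and 18.3 CPM in MitoNegative cells. Tumor values were 7.49, 10.7 and 10.7 CPM in MitoPositive cells, against 18.1, 8.93 and 19.0 CPM in MitoNegative cells. Both genes overlapped between the arms at d7. Bub1, a checkpoint kinase, and Pbk, a mitotic kinase, lay lower in all 3 MitoPositive spleen samples than in any MitoNegative one, at -2.33 ± 0.42 and -2.56 ± 0.39. The MitoPositive spleen sample of donor 3 held 3 UMIs of Bub1, all in 1 cell, and 1 UMI of Pbk.

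The chromosomal passenger complex, which corrects the attachment of chromosomes to the spindle, was higher at d0 and lower in the spleen for all 4 genes. Birc5 (survivin) had 59.3, 68.1 and 91.0 CPM in MitoPositive cells at d0, against 12.8, 23.9 and 34.5 CPM in MitoNegative cells. In the spleen it had 25.0, 33.5 and 95.9 CPM in MitoPositive cells, against 205.0, 118.4 and 112.7 CPM in MitoNegative cells. In the tumor it had 125, 153 and 139 CPM in MitoPositive cells, against 68.5, 60.5 and 186 CPM in MitoNegative cells. The spleen groups did not overlap for Birc5, and its fold change there was -2.01 ± 0.41 (adjusted p = 0.015). Cdca8 (borealin) had 27.5, 33 and 43.2 CPM in MitoPositive cells at d0, against 5.79, 12.9 and 16.5 CPM in MitoNegative cells. Its spleen values were 16.9, 13.2 and 37.1 CPM in MitoPositive cells, against 82.1, 46.9 and 53.5 CPM in MitoNegative cells, again without overlap. Tumor values were 61.1, 66.3 and 64.0 CPM in MitoPositive cells, against 58.4, 29.8 and 78.8 CPM in MitoNegative cells. Incenp, the scaffold of the complex, had smaller fold changes than the median, at 0.79 ± 0.12 at d0 (adjusted p = 0.0017) and -1.13 ± 0.22 in the spleen (adjusted p = 0.011).

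Of 7 centromere and kinetochore genes, all were higher at d0 and 3, Cenpe, Spc24 and Spc25, were lower in the spleen. Cenpa, the histone H3 variant that marks centromeres, had 72.9, 85.3 and 118 CPM in MitoPositive cells at d0, against 51.9, 57.5 and 65.7 CPM in MitoNegative cells. In the spleen it had 44.3, 42.7 and 145 CPM in MitoPositive cells, against 128, 90.8 and 116 CPM in MitoNegative cells. Tumor levels of Cenpa were 232, 337 and 296 CPM in MitoPositive cells, against 181, 146 and 270.3 CPM in MitoNegative cells. Its d0 fold change of 0.71 ± 0.16 (adjusted p = 0.014) was the lowest of the 43. Cenpf, a large kinetochore protein of late G2, had 33.8, 78.2 and 72.0 CPM in MitoPositive cells at d0, against 19.2, 11.7 and 26.7 CPM in MitoNegative cells. Spleen values of Cenpf were 8.80, 13.6 and 179 CPM in MitoPositive cells, against 69.8, 38.4 and 61.6 CPM in MitoNegative cells. In the tumor they were 15.4, 23.6 and 28.2 CPM in MitoPositive cells, against 6.04, 13.9 and 37.2 CPM in MitoNegative cells. The donor 3 spleen value of Cenpf rested on 58 UMIs, of which 26 came from 1 cell. Ndc80, a microtubule-binding kinetochore protein, had 26.8, 25.6 and 27.2 CPM in MitoPositive tumor cells, against 12.1, 139.9 and 30.3 CPM in MitoNegative cells. The value of 139.9 CPM came from 141 UMIs, of which 129 were in 1 cell, and it was 12.3 CPM without that cell.

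All 6 kinesin motors were higher at d0, and 5 were lower in the spleen, all but Kif20a, a motor of cytokinesis. Kif11, which pushes the spindle poles apart, had 23.4, 45.9 and 37.7 CPM in MitoPositive cells at d0, against 10.7, 11.0 and 16.3 CPM in MitoNegative cells. In the spleen it had 11.6, 13.7 and 68.0 CPM in MitoPositive cells, against 76.9, 42.5 and 48.9 CPM in MitoNegative cells. In the tumor it had 35.9, 41.3 and 48.0 CPM in MitoPositive cells, against 22.2, 18.9 and 69.5 CPM in MitoNegative cells. Kif11 thus overlapped between the arms in both d7 tissues. Kif23, a motor of the central spindle, had 15.7, 20.3 and 22.0 CPM in MitoPositive cells at d0, against 8.68, 9.95 and 11.5 CPM in MitoNegative cells. Its spleen values were 7.68, 11.2 and 21.6 CPM in MitoPositive cells, against 39.6, 22.2 and 34.0 CPM in MitoNegative cells. Tumor values were 19.3, 16.6 and 19.3 CPM in MitoPositive cells, against 8.06, 18.9 and 25.1 CPM in MitoNegative cells. Kif23 was the kinesin whose arms did not overlap in the spleen, with a fold change of -1.56 ± 0.28 (adjusted p = 0.009).

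The spindle and microtubule proteins (8 genes) were all higher at d0, and 6 were lower in the spleen, all but Hmmr and Ckap2. Stmn1 (stathmin), which takes microtubules apart, had 138, 169 and 247 CPM in MitoPositive cells at d0, against 29.7, 53.4 and 79.4 CPM in MitoNegative cells. In the spleen Stmn1 had 103, 138 and 247 CPM in MitoPositive cells, against 656, 402 and 333 CPM in MitoNegative cells. In the tumor it had 329, 413 and 409 CPM in MitoPositive cells, against 173, 207 and 478 CPM in MitoNegative cells. The arms did not overlap at d0 or in the spleen, with fold changes of 1.81 ± 0.27 (adjusted p = 0.0013) and -1.70 ± 0.36 (adjusted p = 0.018). Nusap1, which bundles microtubules near chromosomes, had 52.7, 76.9 and 90.8 CPM in MitoPositive cells at d0, against 14.1, 22.0 and 33.3 CPM in MitoNegative cells. Spleen values of Nusap1 were 18.7, 29.2 and 124 CPM in MitoPositive cells, against 157, 78.7 and 110.3 CPM in MitoNegative cells. Its tumor values were 48.9, 63.6 and 66.5 CPM in MitoPositive cells, against 54.4, 39.7 and 93.3 CPM in MitoNegative cells. Nusap1 overlapped in both tissues at d7.

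The last 3 genes, Mki67, Top2a and Mxd3, were higher at d0 and lower in the spleen. Mki67, which coats mitotic chromosomes and is a common marker of dividing cells, had 61.7, 85.1 and 86.0 CPM in MitoPositive cells at d0, against 20.1, 21.3 and 34.3 CPM in MitoNegative cells. In the spleen it had 31.8, 33.3 and 95.9 CPM in MitoPositive cells, against 179, 93.6 and 116 CPM in MitoNegative cells. Tumor levels of Mki67 were 82.8, 85.5 and 111 CPM in MitoPositive cells, against 56.4, 38.7 and 111 CPM in MitoNegative cells. Top2a, the topoisomerase that untangles sister chromosomes, had 147, 203 and 205 CPM in MitoPositive cells at d0, against 61.8, 68.8 and 86.4 CPM in MitoNegative cells. Spleen values of Top2a were 75.7, 82.1 and 319 CPM in MitoPositive cells, against 458, 236 and 322 CPM in MitoNegative cells. Tumor values were 225, 221 and 301 CPM in MitoPositive cells, against 167, 138 and 406 CPM in MitoNegative cells. For both genes the MitoPositive spleen sample of donor 3 lay inside the MitoNegative range. Mxd3, a partner of Max, had 4.75, 6.15 and 12.4 CPM in MitoPositive spleen cells, against 39.1, 22.7 and 20.2 CPM in MitoNegative cells. Mxd3 had the smallest edgeR adjusted p of the 43 there, 0.0012, at -2.26 ± 0.28. Its 12.4 CPM in the MitoPositive spleen sample of donor 3 rested on 4 UMIs, all in the same cell.

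To compare cells at equal depth, each was thinned to 3000 UMIs, and shallower cells were left out: 787 MitoPositive and 738 MitoNegative cells at d0, 412 MitoPositive and 471 MitoNegative cells in the spleen, and 84 MitoPositive and 6 MitoNegative cells in the tumor. At d0, 9.15%, 10.1% and 14.2% of MitoPositive cells of donors 1, 2 and 3 had UMIs of 3 or more of the 43 genes, against 2.75%, 4.14% and 3.78% of MitoNegative cells. In the spleen these were 6.13%, 4.81% and 6.25% of MitoPositive cells, against 32.1%, 17.4% and 13.4% of MitoNegative cells. In the tumor they were 32.5%, 48.9% and 44.4% of MitoPositive cells, against 20.7%, 15.9% and 61.8% of MitoNegative cells. The arms did not overlap at d0 or in the spleen and overlapped in the tumor. By this share the MitoPositive spleen sample of donor 3 lay with donors 1 and 2, although its 6.25% is 3 of 48 cells, with a 95% Wilson interval of 2.15% to 16.8%. Intervals cover counting error only. Unthinned, the d0 shares were 18.9%, 22.8% and 27.9% of MitoPositive cells, against 10.2%, 16.0% and 14.4% of MitoNegative cells. Unthinned spleen shares were 15.4%, 9.73% and 14.3% of MitoPositive cells, against 43.3%, 26.3% and 22.7% of MitoNegative cells. Unthinned tumor shares were 51.7%, 68.5% and 66.4% of MitoPositive cells, against 53.3%, 34.1% and 78.6% of MitoNegative cells, and the overlaps were as in thinned cells.

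With 10 or more of the genes detected, a rule chosen after the data were seen, shares were 4.19%, 6.09% and 6.74% of MitoPositive cells at d0, against 0.646%, 1.07% and 2.11% of MitoNegative cells. In the spleen they were 1.38%, 2.28% and 6.25% of MitoPositive cells, against 15.7%, 8.33% and 8.02% of MitoNegative cells. In the tumor they were 7.01%, 9.51% and 9.10% of MitoPositive cells, against 0%, 1.22% and 18.2% of MitoNegative cells, where the 0% is 0 of 29 cells, which allows a share of up to 10.3%. Tumor cells with 3 or more of the genes held fewer UMIs of them each, 9.94 to 10.3 on average in MitoPositive and 7.50 to 11.0 in MitoNegative samples. In the spleen such cells held 11.7 to 75.7 in MitoPositive and 22.1 to 31.3 in MitoNegative samples, and at d0 they held 18.6 to 27.0 in MitoPositive and 11.8 to 24.8 in MitoNegative samples. Cells with fewer than 3 of the genes held 0.915 to 1.12 UMIs of them in MitoPositive and 0.797 to 1.13 in MitoNegative tumor samples, and 0.521 to 0.744 in the spleen and d0 samples of both arms. RNA free in the droplets also gives such UMIs, and its part was not tested.

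**Figure D3:**
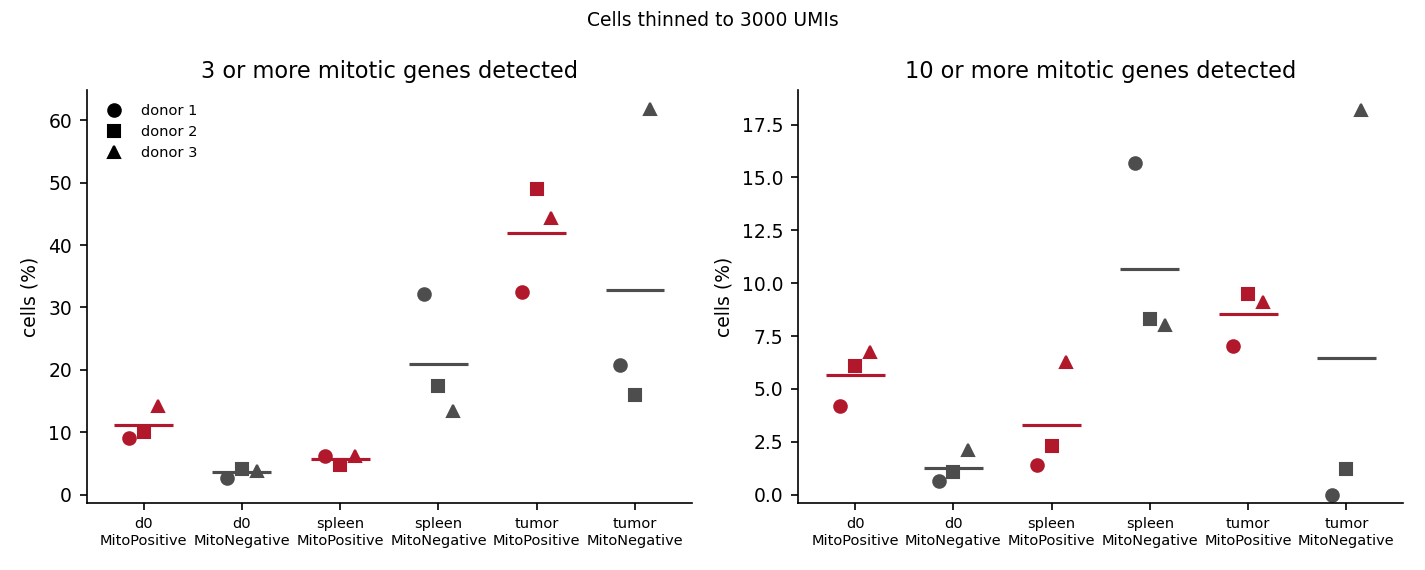
Share of cells, in percent (y axes), with 3 or more (left) and 10 or more (right) of the 43 mitotic genes detected after thinning to 3000 UMIs, for the 3 samples of each group (x axis). Symbols are donors and lines are group means; MitoPositive lies above MitoNegative at d0 and below it in the spleen in every donor, and in the tumor the MitoNegative samples spread from 15.9% to 61.8% (left).

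The UMIs of each gene were concentrated in the cells that held the others. At d0, cells with 3 or more other genes of the list were 6.85% to 7.66% of all cells, depending on the gene, and held from 39.6% of the UMIs of Incenp to 97.1% of those of Cdc25c. Cenpa followed Incenp with 43%. In the spleen such cells were 15.8% to 18.1% of all and held 61.6% of the UMIs of Incenp and 67.8% of those of Cenpa, and 98.6% of those of Kif2c, a motor that takes microtubules apart. In the tumor they were 39.5% to 45.1% of all and held 62.1% of the UMIs of Cenpa and 98.9% of those of Hmmr, a spindle protein. Incenp and Cenpa, whose UMIs were spread most widely at d0, also had the smallest arm effects there and in the spleen. These shares are descriptions over cells pooled from the samples of both arms.

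**Figure D4:**
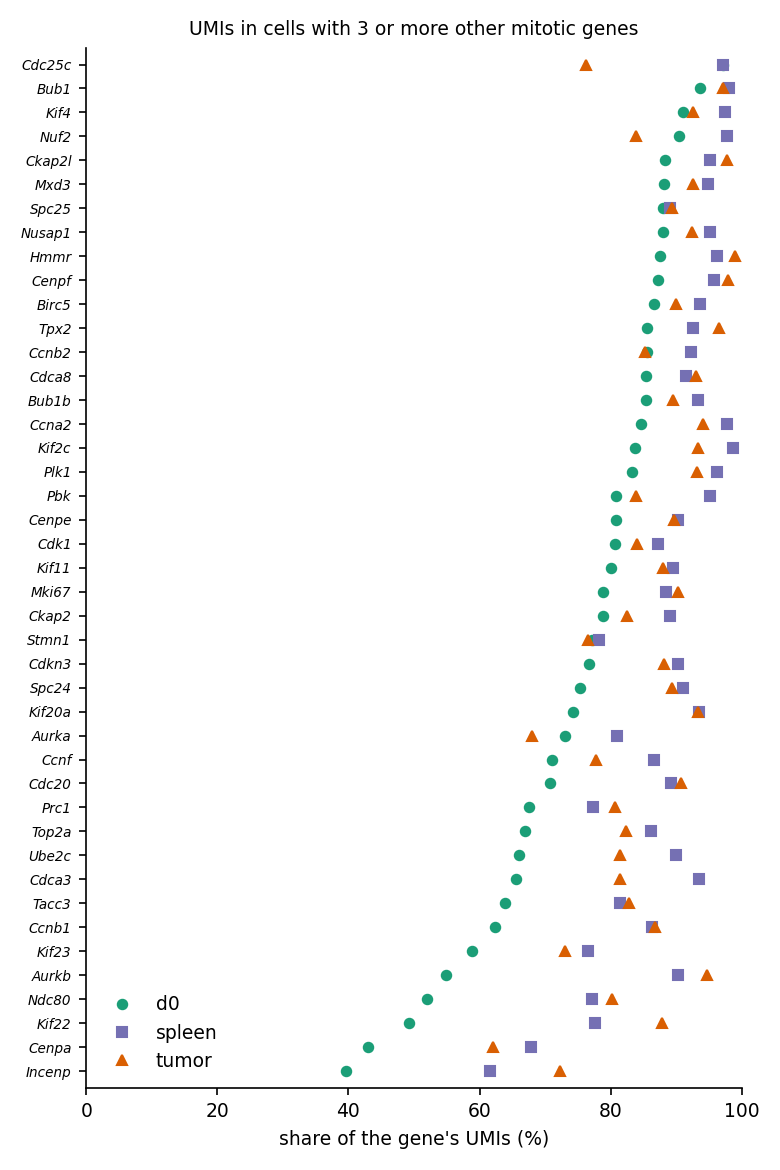
Share of the UMIs of each gene (x axis, percent) found in cells with 3 or more other mitotic genes, for the 43 genes (y axis, ordered by d0), at d0, in the spleen and in the tumor. Incenp and Cenpa are lowest at d0, at 39.6% and 43%, and Cdc25c is highest there, at 97.1%.

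Between tissues, 34 of the 43 genes were higher in tumor than in spleen in MitoPositive cells, where 28.5% of all genes tested were called higher, and the median was 1.48. The summed levels of this arm overlapped between the tissues. They were 1926 and 2283 CPM in tumor against 567 and 696 CPM in spleen for donors 1 and 2. For donor 3 the order was reversed, at 2372 CPM in tumor against 2474 CPM in spleen. In MitoNegative cells 1 gene was higher, where 20.2% of all genes were, and 5 were lower, where 23.1% were, with a median of -0.42. In MitoPositive cells Bub1 stood at 2.77 ± 0.42 (adjusted p = 9.6e-05), Cenpa at 2.47 ± 0.30 (adjusted p = 1.8e-05) and Ccnb2 at 2.46 ± 0.38 (adjusted p = 0.00011). Cenpa was the gene that rose in MitoNegative cells too, at 0.88 ± 0.28 (adjusted p = 0.023). Its 181, 146 and 270.3 CPM in tumor samples of that arm lay above its 128, 90.8 and 116 CPM in spleen samples. The 5 that fell in MitoNegative cells were Mxd3 at -2.04 ± 0.36, Ccnf, a cyclin-like ubiquitin ligase part, at -1.63 ± 0.45, Prc1, which bundles the central spindle, at -1.38 ± 0.39, Kif22, a chromosome-binding kinesin, at -1.24 ± 0.42, and Ckap2l, a spindle protein, at -1.11 ± 0.41. In MitoPositive cells these stood at -0.10 ± 0.31, 0.05 ± 0.37, -0.10 ± 0.34, 0.27 ± 0.36 and 0.90 ± 0.37 in that order, and none passed. In MitoNegative tumor samples of donors 1 and 2 their UMIs were few. Mxd3 had 3 and 5, Ccnf 1 and 8, Prc1 6 and 15, Kif22 4 and 3, and Ckap2l 3 and 6. Of the 15 UMIs of Prc1, 14 came from 1 cell. Donor 3 had 15 to 69 UMIs of each. Mxd3 had 4.73, 4.59 and 4.45 CPM in MitoPositive tumor samples, all below the 6.04, 4.96 and 6.06 CPM in MitoNegative tumor samples. That order turned on single cells: 1 cell held 2 of the 3 UMIs of donor 1 and 1 cell held 4 of the 5 of donor 2. Without the top cell of each sample, Mxd3 had 2.2, 1.02 and 5.31 CPM in MitoNegative samples, against 3.97, 4.29 and 4.1 CPM in MitoPositive samples. Without donor 3, 18 genes were lower and 1 higher in MitoNegative cells, where 1684 and 1798 of 12307 genes were. Without donor 1 or donor 2, 22 and 21 were higher in MitoPositive cells, where 2653 of 12194 and 2205 of 11131 genes were. Median depth per cell also differed between the tissues, at 10272.5 to 15794 UMIs in tumor and 5288 to 6276 UMIs in spleen samples of MitoPositive cells. With cells thinned to 3000 UMIs, 32 of 42 genes tested were higher in that arm, where 2181 of all 9905 tested were. In MitoNegative cells depth was 10067 to 21063.5 UMIs in tumor and 5791 to 7307 UMIs in spleen samples, and thinning left Cenpa higher and, of the 5 lower genes, Mxd3 alone lower. In MitoPositive cells, summed myeloid markers were 44.9 to 86.3 CPM in tumor and 147 to 881 CPM in spleen samples, B cell markers 53.2 to 65.1 CPM in tumor and 74.2 to 433 CPM in spleen samples, and T cell markers 3216 to 3301 CPM in tumor and 4187 to 4731 CPM in spleen samples, none of them overlapping. Without the clusters rich in markers of other cell types, 35 genes were higher in MitoPositive cells, where 3436 of 11607 were. With the recipient as block, 33 were higher in MitoPositive cells, and 1 was higher and 6 were lower in MitoNegative cells. Over all 11905 genes, that fit called 3093 higher in MitoPositive cells, and 2160 higher and 2511 lower in MitoNegative cells.

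**Figure D5:**
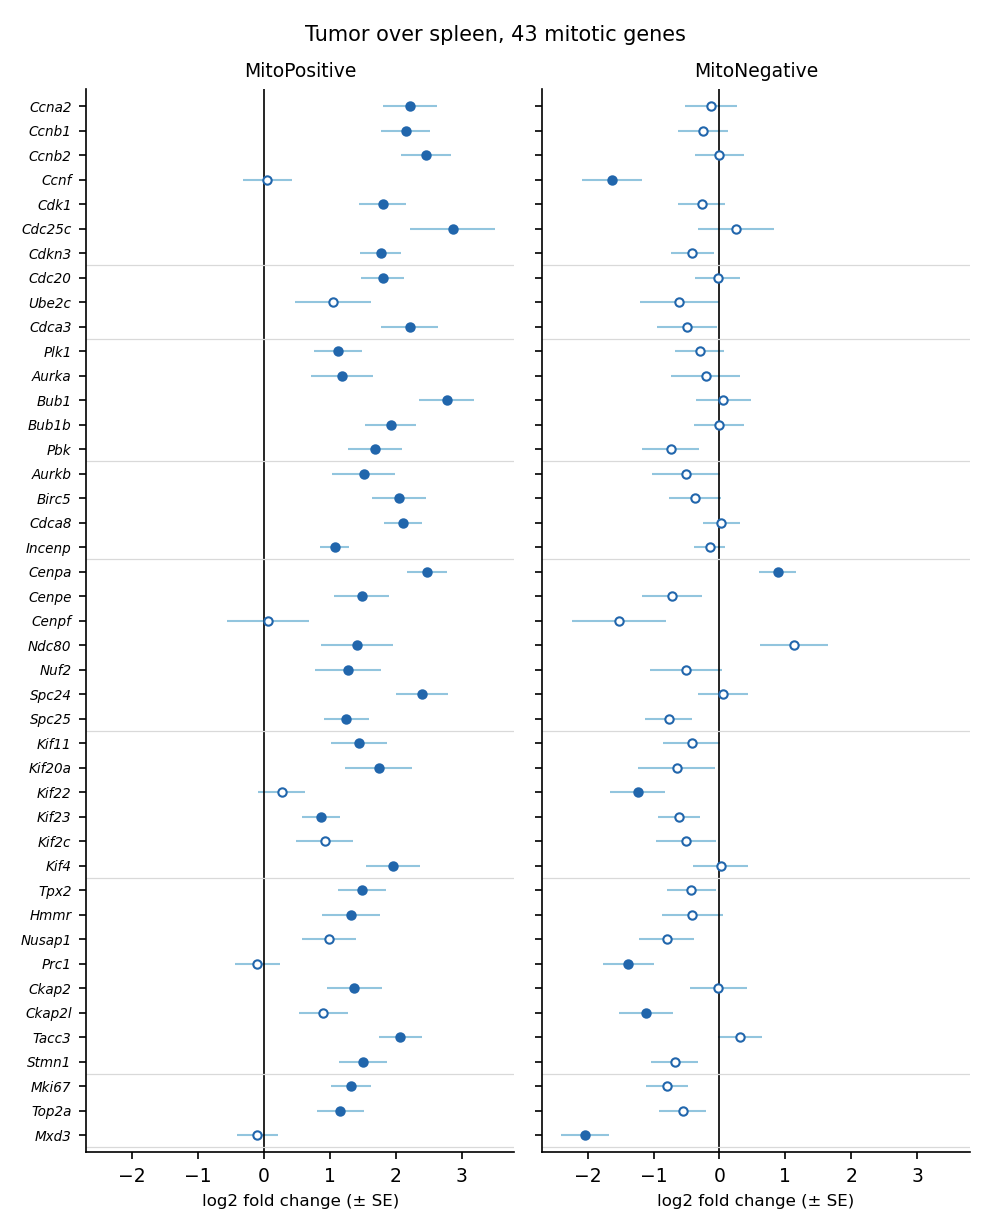
Log2 fold change of tumor over spleen with its SE (x axis) for the 43 mitotic genes (y axis, by role) in MitoPositive (left) and MitoNegative (right) cells. Filled points passed the edgeR test at an adjusted p under 0.05: 34 are filled right of 0 on the left, and on the right Cenpa is filled right of 0 and 5 genes left of it.

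Other genes of the cell cycle were counted beside the 43. Over all genes tested, 6.03% were called higher and 369 of 11436 lower at d0, and 2.97% were called lower in the spleen. Of 60 further mitotic genes, 52 were higher and 1 lower at d0 (59 tested, median 1.39), and 37 were lower in the spleen (median -1.58). Ncapg2, a condensin subunit, stood at 2.21 ± 0.18 at d0 and -1.80 ± 0.39 in the spleen, and Melk, a mitotic kinase, at 1.83 ± 0.26 and -2.64 ± 0.39. Of 29 S phase genes, 17 were higher at d0 (28 tested, median 0.70), and 23 were lower in the spleen (median -1.47). Clspn, a checkpoint adaptor of DNA replication, stood at 1.88 ± 0.20 at d0 and -2.06 ± 0.40 in the spleen. Set against the S phase sum, the 43 genes had ratios of 2.12, 2.53 and 2.80 in MitoPositive cells at d0, against 1.14, 1.28 and 1.72 in MitoNegative cells. In the spleen the ratios were 0.913, 0.991 and 4.32 in MitoPositive cells, against 1.57, 1.31 and 1.89 in MitoNegative cells. In the tumor the ratios were 0.883, 1.06 and 0.988 in MitoPositive cells, against 0.959, 0.925 and 1.00 in MitoNegative cells. The ratio was thus higher in all MitoPositive samples at d0, and in the spleen the MitoPositive samples lay on both sides of the MitoNegative ones.

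Among 21 regulators of G2/M transcription, 7 were higher and 1 lower at d0, and 5 were lower in the spleen. Foxm1 stood at 1.54 ± 0.26 at d0 (adjusted p = 0.0025) and -2.15 ± 0.49 in the spleen (adjusted p = 0.024). Mybl2 (B-Myb) stood at 0.85 ± 0.28 at d0 (adjusted p = 0.074) and -2.31 ± 0.44 in the spleen (adjusted p = 0.011). E2f7 and E2f8, repressors of the E2F family, stood at 3.28 ± 0.30 and 2.36 ± 0.32 at d0, and at -1.98 ± 0.47 and -2.26 ± 0.49 in the spleen. Myb, a relative of Mybl2, was the lower one at d0, at -1.23 ± 0.15. Of 7 G1 cyclins and kinases, Ccnd2 and Cdk6 were higher at d0, at 0.35 ± 0.08 and 0.31 ± 0.08, and in the spleen edgeR called 0 of them, though 4 had an unadjusted p below 0.05. Of all 11905 genes tested there, 2059 had an unadjusted p below 0.05. Of 15 inhibitors and brakes, 12 tested at d0 gave 3 higher, among them Cdkn1a (p21) at 1.71 ± 0.22 and Cdkn2c at 0.55 ± 0.14, and 1 lower, Btg1 at -0.37 ± 0.08. In the spleen 14 were tested and Cdkn2c was lower, at -0.84 ± 0.18. In the tumor 0 genes of these 5 lists passed between the arms by edgeR, which called 0.193% of all genes tested.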

How the data were processed

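Gene expression and hashtags were measured with the 10x Chromium 3' kit, per the labels' protocols. Per the file headers and the submitters' processing notes, the deposited matrices hold raw UMI counts of genes and hashtags per barcode, written by Cell Ranger 7.0.0 (build mm10, GRCm38), with Seurat 4.0.5 also named. They are neither normalised nor divided by hashtag.

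Of 18092 barcodes, 17458 held 500 or more genes and under 15% mitochondrial UMIs and were kept. A hashtag was assigned if it had at least 10 UMIs and 3 times the next, and 1054 barcodes had none. Leiden clusters were made per day (scanpy 1.11.5, 2000 variable genes, 30 components, resolution 0.5), and those with under 50% of cells with a CD3 UMI were left out, which left 16364 cells. Clusters were not named and no doublet caller was run; doublets could leave through the hashtag rule. UMIs were summed per hashtagged sample and tested with edgeR 4.0.16 in R 4.3.3 (filterByExpr, TMM, quasi-likelihood, Benjamini-Hochberg over all genes tested, threshold 0.05). The d0 fit had no block; the d7 fit of 12 samples had the library (donor) as block, and an added fit the recipient (donor and arm). CPM are UMIs per 1000000 of the sample, without TMM. Standard errors came from the F statistic. The fits were also run on simulated counts with a fixed dispersion and no donor, library or recipient effects. Those runs cannot show how the fits behave where such effects are present. Donor pairs the samples, since the deposited list gives the donor mouse. Deviations from the group means correlated at 0.08 to 0.34 within donors and -0.32 to 0.06 across donors at d0, and at -0.04 to 0.33 within and -0.25 to 0.12 across donors at d7. Such deviations cancel out within a group, so the ranges within and across donors are not independent. At d7 each donor is its own library, so these correlations cannot tell donor from library. The labels do not say whether the donors' cultures were kept apart in every step, so p-values measure the spread between these samples.

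The 43 genes and the other lists were chosen with earlier results of these data known. Values in every sample are given for the 2 genes of each role with the highest mean log2 CPM and for a gene that passed against most others; of the other lists, for some of the 3 genes with the smallest p at d0 and in the spleen. Ndc80, Mxd3, Bub1, Pbk, Cdc25c and Incenp were named after their values were seen. Alternatives used HTODemux of Seurat 5.3.0 (positive quantile 0.99), DESeq2 1.42.0, no count filter, all clusters, no mitochondrial limit, thinned cells, small samples left out and each donor left out.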

Additional observations from a re-analysis of the deposited data

Results flagged for a closer look

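The arm effect of the mitotic genes differed between the d7 spleen and d0 in the test of the difference itself: all 43 of 43 genes passed (edgeR, adjusted p under 0.05), each lower in the spleen, with a median difference of -3.53 on the log2 scale. The d0 part of the difference rests on the hashtag map of the deposited sample list, and the spleen part on 3 donors with different recipients for each arm.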

How the results depend on the processing

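Counts of the 43 genes called under other settings that moved by more than 1.5 times were these. At d0 (43 higher), cells thinned to 3000 UMIs gave 27 of 36 tested, and the other hashtag map gave 0, with a median of -0.05 and negative values for Ccnb2 (-0.35), Cdk1 (-0.11), Ube2c (-0.30), Cdca3 (-0.13), Plk1 (-0.11), Birc5 (-0.13), Cdca8 (-0.17), Cenpa (-0.23), Stmn1 (-0.21) and Nusap1 (-0.07), none of which passed. Leaving out 1 sample at d0 gave 37 to 43, and the fit with 37 called 333 of 11805 genes higher. Over all genes tested at d0, thinned cells gave 274 of 9475 higher. In the spleen (34 lower), HTODemux gave 6 and leaving out a donor gave 0 to 42. Over all genes, HTODemux called 62 of 11047 lower there, and the fit without donor 1 called 7 of 12194 lower. HTODemux gave no hashtag to 59.2% and 57.4% of barcodes of the donor 1 and donor 2 libraries. In the tumor (0), no count filter gave 5, and leaving out a donor gave 0 each time. For tumor over spleen in MitoPositive cells (34), leaving out a donor gave 21 to 39. The fit with 21 called 2205 of 11131 genes higher, and the fit with 39 called 3361 of 12307. In MitoNegative cells (6), HTODemux gave 3, no count filter 22, thinned cells 2, and leaving out a donor 4 to 19. Over all genes, HTODemux called 2110 higher and 2009 lower of 11047 there. No count filter called 2176 and 3128 of 22455, and thinned cells 1162 and 1115 of 9905. Without donors 1, 2 and 3 the fits called 2204 and 2027 of 12194, 1784 and 1804 of 11131, and 1798 and 1684 of 12307. For the arm difference between tissues (0), no count filter gave 42, DESeq2 8, thinned cells 7, the recipient as block 1 (chosen after seeing the data), leaving out clusters rich in markers of other cell types 11 (chosen after seeing the data), and leaving out a donor 0 to 34. For tumor minus d0 (0), no count filter gave 37, DESeq2 1, samples under 50 cells left out 2, and leaving out a donor 0 each time. Without the samples under 50 cells, 75 genes were called higher and 58 lower of 13151. For spleen minus d0 (43), leaving out a donor gave 37 to 43, and the fit with 37 called 323 of 12993 genes lower. Of the 112 counts under other settings, the other 91 stayed within 1.5 times. The replicate block (donor) at d0 gave 43, and without the block at d7 the spleen gave 35; it changed no other count by over 1.5 times. The cause of these changes was not tested. The 30 and 49 cells of the smallest samples limit what the d7 contrasts can show.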
